A study of Homo sapiens with 12 samples.

Results

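The FAM3 genes encode small secreted proteins that share a fold called the GG domain. FAM3C, also known as ILEI, acts on the LIF receptor and STAT3 and is studied as an inducer of epithelial to mesenchymal change, while FAM3A is studied for ATP release, P2 receptor signalling and AKT activation. FAM3B (PANDER) and FAM3D are known mainly from the pancreas and the gut. A processed pseudogene is a copy of a spliced transcript that was written back into the genome, and FAM3C2 is annotated as such a copy of FAM3C.

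FAM3A, FAM3C and FAM3C2 were taken by gene symbol from the table of transcript abundances, which gave 3 of 36433 gene symbols and 28 of 187626 transcripts. They were chosen by gene symbol with their TPM in these libraries already in view, so their levels and differences are given as a description, without tests. RNA was measured in HMEC-1 cells, which are endothelial cells from small vessels of human skin that were made to grow without limit, after transfection with 50 nM of a microRNA mimic for 48 h. The 4 groups were the miR-126 mimic, the miR-143 mimic, the miR-150 mimic and a scrambled RNA as control, each with 3 libraries numbered 2, 3 and 4. All groups were the same cell line with the same lipid transfection, and the labels do not say whether the libraries came from separate cultures, so the spread between them may be technical. Values are TPM (transcript abundances), which are scaled by transcript length and sum to a fixed total in each library, and the number of reads behind them is unknown.

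All 3 genes passed the filter of at least 1 TPM in at least 3 libraries, as did 13750 genes in all. By mean TPM over the 12 libraries FAM3C ranked 3219 among these genes with 58.4 TPM, FAM3C2 ranked 4060 with 45.2 TPM and FAM3A ranked 5029 with 34.4 TPM. The other family members were near 0, since FAM3B reached at most 0.130 TPM and FAM3D at most 0.233 TPM in any library. The 10 endothelial markers examined all averaged at least 1 TPM over all libraries. Their sum ranged from 1287 to 1925 TPM with the miR-126 mimic, 1777 to 2575 TPM with the miR-143 mimic and 1537 to 2328 TPM with the miR-150 mimic. In the scrambled control it ranged from 1771 to 2559 TPM. Of the 5 epithelial markers 3 averaged at least 1 TPM over all libraries, while CDH1 stayed under 1 TPM throughout. The sum of the 5 epithelial markers nevertheless ranged from 526 to 579 TPM with the miR-126 mimic, 731 to 952 TPM with the miR-143 mimic and 902 to 1027 TPM with the miR-150 mimic, against 449 to 634 TPM in the scrambled control. Most of it was KRT18, an intermediate filament keratin, with 510 ± 25.3, 779 ± 111 and 913 ± 62.8 TPM for the mimics of miR-126, miR-143 and miR-150 and 492 ± 94.0 TPM for the scrambled control (SD, n = 3 each). The part of KRT18 in the FAM3 levels was not tested. Of the 7 fibroblast and pericyte markers 4 averaged at least 1 TPM over all libraries, and DCN and LUM stayed under 1 TPM throughout. Their sum ranged from 22.0 to 63.8 TPM with the miR-126 mimic, 21.0 to 53.2 TPM with the miR-143 mimic and 21.5 to 41.4 TPM with the miR-150 mimic, against 24.5 to 127.8 TPM in the scrambled control. Of the 5 leukocyte markers 1 averaged at least 1 TPM, CD3E and ITGAM stayed under 1 TPM throughout, and the sum was at most 4.10 TPM in any library. Shorter transcripts were relatively high in replicate 4 of the miR-143 mimic and of the miR-150 mimic. There the deviation of 13656 genes from their mean correlated with transcript length at Spearman's rho of -0.373 and -0.483, and at -0.0312 to 0.266 in the other libraries. In bulk RNA, fewer cells of a type and less RNA per cell cannot be told apart.

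The sequences of FAM3C and its copy were compared first, since reads are assigned by sequence. On GRCh38, FAM3C lies on chromosome 7 (chr7:121348851-121396364, minus strand) and its main transcript FAM3C-201 has 2508 bases, with 214 bases of 5′ UTR and a coding part of 681 bases before the stop codon. FAM3C2 lies on chromosome X (chrX:23075758-23076767, plus strand), inside the lincRNA gene PTCHD1-AS of the opposite strand. Its only transcript has 681 bases and aligned to bases 215 to 895 of FAM3C-201 with 100% identity, 0 substitutions and 0 gaps. The copy thus matched the whole coding part, which holds 227 codons, and none of the untranslated parts. The last 141 coding bases are shown because the models differ there in where an exon ends, and capitals mark the last exon of each model within this stretch:
FAM3C-201: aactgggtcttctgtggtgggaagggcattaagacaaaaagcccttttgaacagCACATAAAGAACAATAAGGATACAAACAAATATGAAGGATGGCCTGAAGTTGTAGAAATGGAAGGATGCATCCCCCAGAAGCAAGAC
FAM3C2: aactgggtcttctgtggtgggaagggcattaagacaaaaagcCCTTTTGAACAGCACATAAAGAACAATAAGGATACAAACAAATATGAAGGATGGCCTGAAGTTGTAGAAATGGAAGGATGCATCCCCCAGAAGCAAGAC
The letters are identical, and only the exon boundary differs. The copy's boundary lies after its base 582, which is 12 bases from the nearest FAM3C junction at coding base 594, and none of the 8 FAM3C junctions within the coding part coincides with it. The 2 exons of the copy are separated by 329 bases in the genome.

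**Figure D1:**
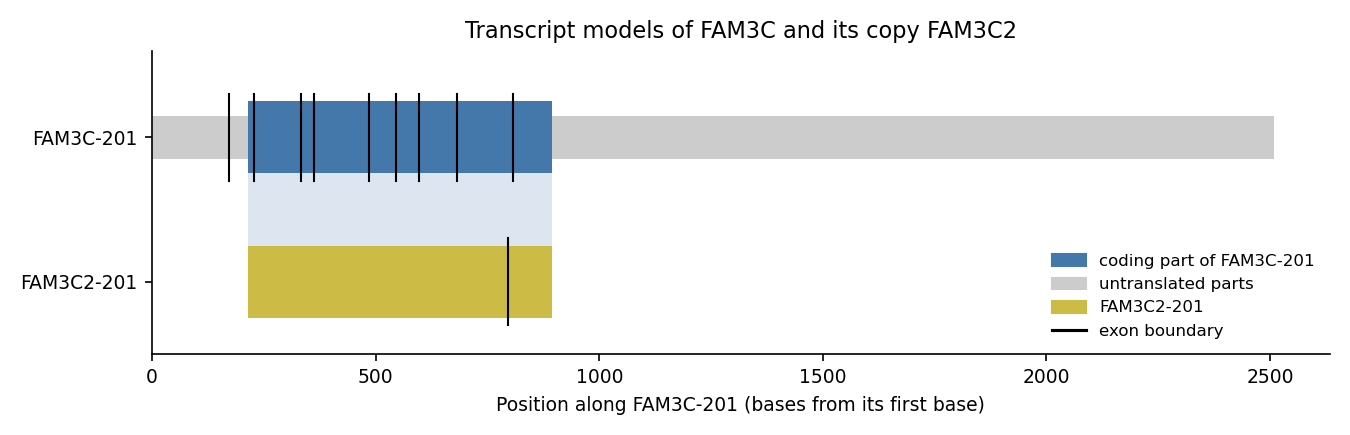
Transcript models of FAM3C-201 (above) and FAM3C2 (below), drawn to scale along the bases of FAM3C-201, with vertical lines at exon boundaries. The copy spans bases 215 to 895, the coding part of FAM3C-201, and the long 3′ untranslated part has no counterpart in it.

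In words of 31 bases, all 651 of the words in the FAM3C2 transcript also occurred in FAM3C-201, and 0 occurred in FAM3C2 alone. FAM3C-201 held 2478 such words, of which 1551 were found in no other annotated transcript. The other FAM3C transcripts shared fewer words with the copy, namely 424 for FAM3C-202, 376 for FAM3C-203, 184 for FAM3C-204 and 80 for FAM3C-205, and the FAM3A transcripts shared 0. A TPM value listed for FAM3C2 therefore rested on no 31-base word that FAM3C lacks. The word length that kallisto used is not given in the sources used here. Among the processed pseudogene transcripts in the table, 278 of 10187 (2.73%) had no 31-base word found in their own gene alone, as had 43 of the 292 with a mean of at least 1 TPM (14.7%). FAM3C2 ranked 14 of those 278 by mean TPM.

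FAM3C was higher with the miR-126 and miR-143 mimics and lower with the miR-150 mimic than with the scrambled RNA. It had 84.7, 63.5 and 78.9 TPM with the miR-126 mimic, 112, 83.1 and 94.9 TPM with the miR-143 mimic and 18.1, 21.9 and 13.2 TPM with the miR-150 mimic, against 43.8, 44.4 and 42.5 TPM in the scrambled control. All libraries of the miR-126 and miR-143 mimics lay above the control and all of the miR-150 mimic below it, while the miR-126 and miR-143 mimics overlapped. In group means FAM3C stood at 75.7 ± 10.9, 96.8 ± 14.7 and 17.7 ± 4.40 TPM for the mimics of miR-126, miR-143 and miR-150, against 43.6 ± 0.963 TPM for scrambled RNA (SD, n = 3 each). These are ratios to the scrambled control of 1.74, 2.22 and 0.407. On the log2(TPM + 1) scale the differences from the control were 0.77, 1.12 and -1.28 (SE 0.182 each), where the median gene differed by 0.10, -0.04 and -0.11. Without the 2 libraries high in short transcripts they were 1.13 for the miR-143 mimic and -1.09 for the miR-150 mimic.

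FAM3C2 stood on the same side of the control as FAM3C in each group. Its TPM were 64.5, 68.1 and 93.9 with the miR-126 mimic, 75.8, 40.2 and 57.9 with the miR-143 mimic and 12.6, 17.5 and 14.2 with the miR-150 mimic, against 29.2, 31.5 and 37.1 in the scrambled control. Again every library of the miR-126 and miR-143 mimics lay above the control and every library of the miR-150 mimic below it. Group means were 75.5 ± 16.0, 58.0 ± 17.8 and 14.8 ± 2.50 TPM, against 32.6 ± 4.06 TPM for scrambled RNA (SD, n = 3 each), or ratios of 2.31, 1.78 and 0.453. The log2 differences were 1.17, 0.77 and -1.10 (SE 0.227 each). The miR-126 mimic thus had the higher mean for the copy and the miR-143 mimic the higher mean for FAM3C, but their libraries overlapped in both.

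All libraries above the control occurred in 23.1% of tested genes for the miR-126 mimic and 11.4% for the miR-143 mimic, and all libraries below it in 14.6% for the miR-150 mimic. The full pattern of FAM3C and FAM3C2 (above, above and below) was shown by 43 genes, or 0.313%. FAM3C and FAM3C2 were chosen with this pattern known, and they share their sequence, so their likeness is not independent of it. The mimic comparisons also share the same 3 control libraries.

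The TPM of FAM3C and FAM3C2 were also added. The sum was 151 ± 20.7 TPM with the miR-126 mimic, 155 ± 32.4 TPM with the miR-143 mimic and 32.5 ± 6.24 TPM with the miR-150 mimic, against 76.2 ± 3.33 TPM in the scrambled control (SD, n = 3 each). The ratios to the control were 1.98, 2.03 and 0.427, so the miR-126 and miR-143 mimics, whose means stood in opposite orders for FAM3C and for the copy, had close sums. Because TPM divide by length and the copy is shorter than FAM3C-201, moving reads between them changes this sum.

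**Figure D2:**
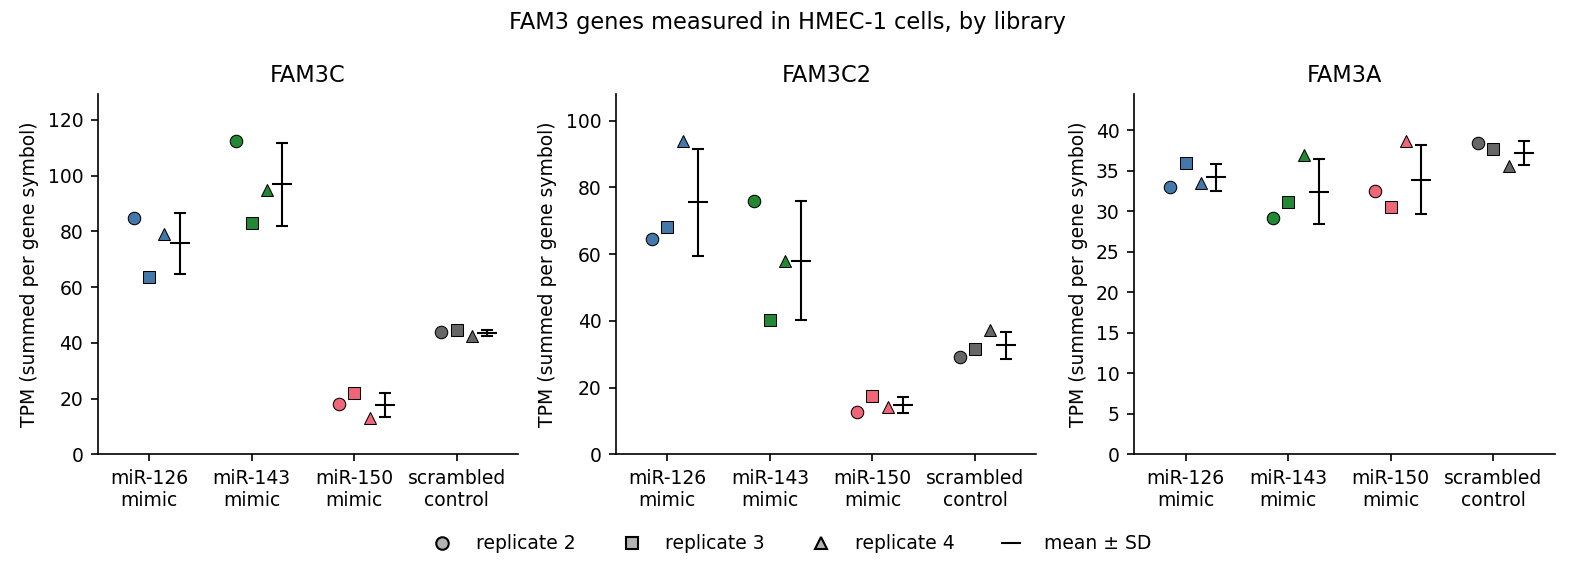
TPM summed per gene symbol for FAM3C, FAM3C2 and FAM3A in each library (symbols by replicate number) of the miR-126 mimic, miR-143 mimic, miR-150 mimic and scrambled control groups, with mean ± SD beside the points. FAM3C and FAM3C2 lie above the control with the miR-126 and miR-143 mimics and below it with the miR-150 mimic, while FAM3A overlaps in all groups.

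The share of the sum listed under FAM3C2 differed between libraries of the same group as well as between groups. It was 43.3%, 51.8% and 54.3% with the miR-126 mimic, 40.3%, 32.6% and 37.9% with the miR-143 mimic and 41.1%, 44.4% and 51.9% with the miR-150 mimic, against 40.0%, 41.5% and 46.6% in the scrambled control. Each mimic overlapped the control, and the miR-126 and miR-150 mimics overlapped each other. Both lay wholly above the miR-143 mimic, narrowly so for the miR-150 mimic (41.1% at the lowest, against 40.3% at the highest with the miR-143 mimic). Differences in share were not tested. Means were 49.8 ± 5.80%, 36.9 ± 3.92% and 45.8 ± 5.56% for the mimics of miR-126, miR-143 and miR-150 and 42.7 ± 3.45% for the control (SD, n = 3 each). Over all 12 libraries the share ran from 32.6% to 54.3%. Weighted by transcript length, which approximates the division of reads, the copy took 22.3 ± 4.55%, 14.0 ± 2.21% and 19.3 ± 3.85% for the 3 mimics in that order, against 17.4 ± 1.73% for the control. Within FAM3C itself FAM3C-201 held 88.8% to 100% of the TPM, with FAM3C-202 and FAM3C-204 making up most of the remainder and at 0 in some libraries.

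**Figure D3:**
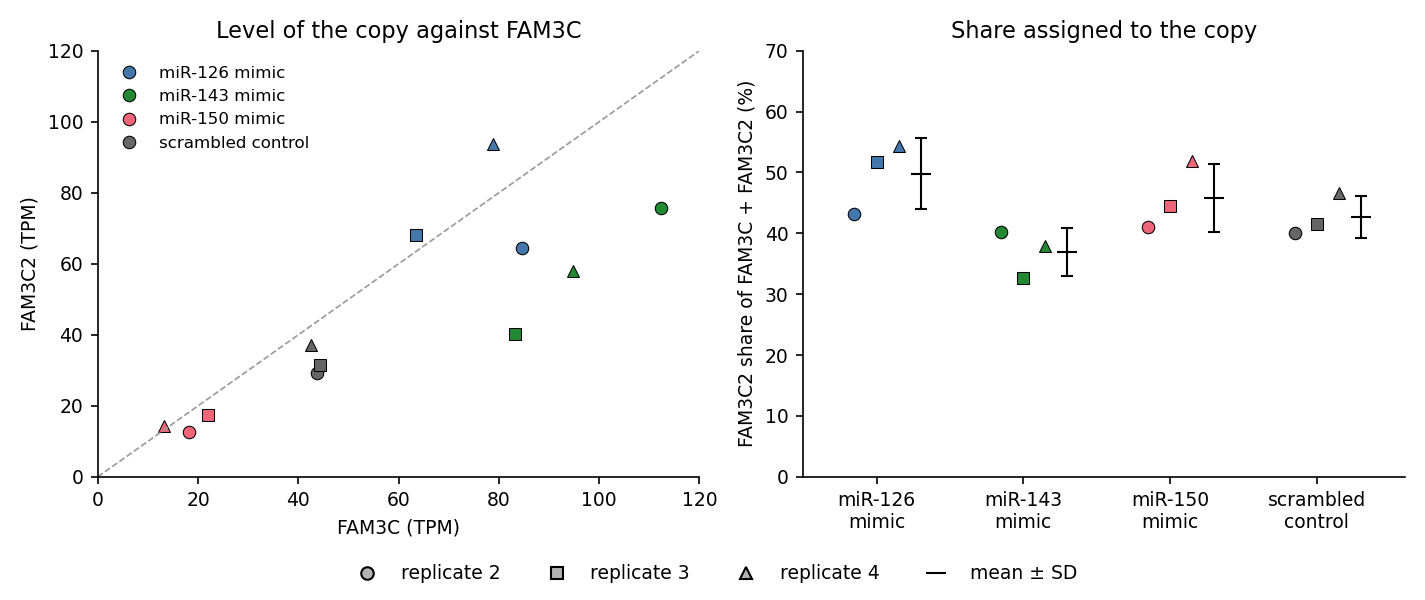
Left, FAM3C2 against FAM3C in TPM for each library, with a dashed line where both are equal. Right, the FAM3C2 share of their summed TPM by group, with mean ± SD; shares run from 32.6% to 54.3%, and each mimic overlaps the scrambled control.

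The mature strands of 2 of the mimicked microRNAs are shown because a microRNA pairs with transcripts through its seed (bases 2 to 8, in capitals). They come from RefSeq on GRCh38.p14, and the labels do not say which strand a mimic carried:
hsa-miR-126-3p: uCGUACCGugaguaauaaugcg
hsa-miR-126-5p: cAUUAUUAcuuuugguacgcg
hsa-miR-143-3p: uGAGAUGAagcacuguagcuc
hsa-miR-143-5p: gGUGCAGUgcugcaucucuggu
No seed is shared among them. The 3′ UTR of FAM3C-201 (1610 bases) and that of FAM3A-202 (652 bases) held 0 matches to the reverse complements of these seeds, searched on the transcript strand. The miR-150 sequence was missing from the reference used here, so neither 3′ UTR was searched for its seed. Whether FAM3C, lower with the miR-150 mimic, holds such a match is therefore not known from this search. Among 12429 genes with a 3′ UTR the reverse complement of the miR-126-3p seed, CGGTACG, occurred in 0.298%. That of miR-126-5p, TAATAAT, occurred in 19.9%. That of miR-143-3p, TCATCTC, occurred in 14.4%, and that of miR-143-5p, ACTGCAC, in 18.2%.

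FAM3A was slightly lower in mean with each mimic, and its libraries overlapped the scrambled control in each comparison. It had 33.0, 36.0 and 33.5 TPM with the miR-126 mimic, 29.1, 31.2 and 36.9 TPM with the miR-143 mimic and 32.5, 30.5 and 38.6 TPM with the miR-150 mimic, against 38.4, 37.6 and 35.5 TPM in the scrambled control. The means were 34.1 ± 1.61, 32.4 ± 4.02 and 33.9 ± 4.24 TPM, against 37.2 ± 1.51 TPM for scrambled RNA (SD, n = 3 each). The log2 differences were -0.12, -0.20 and -0.14 (SE 0.130 each). For the miR-150 mimic the difference was -0.01 with each library centred on its median gene and -0.03 with quantile normalization, and -0.23 to -0.07 with a library left out.

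FAM3A lies on chromosome X (chrX:154506159-154516242, minus strand), where the annotation has no overlapping gene, and 7 of its 22 transcripts averaged at least 1 TPM. Transcripts annotated as protein coding held 70.7% to 90.2% of the gene's TPM in a library. The leading transcripts FAM3A-202, FAM3A-204 and FAM3A-215 have coding parts of the same length, 690 bases, and differ in 5′ UTR length with 367, 188 and 467 bases. Few of their 31-base words occurred in no other transcript. These were 1 of 1682 for FAM3A-202, 27 of 1491 for FAM3A-204 and 0 of 1770 for FAM3A-215. The words that separate these 3 transcripts from one another were not counted.

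Although the gene total overlapped between groups, some of the listed transcripts did not. FAM3A-202 had 1.56, 3.13 and 5.08 TPM with the miR-126 mimic, 6.82, 8.29 and 7.96 TPM with the miR-143 mimic and 10.3, 13.2 and 9.95 TPM with the miR-150 mimic, against 14.2, 10.6 and 15.1 TPM in the scrambled control. Its libraries were all below the control with the miR-126 mimic and with the miR-143 mimic, and overlapped it with the miR-150 mimic. All libraries below the control occurred in 8.8% and 9.72% of the 47009 transcripts with a mean of at least 1 TPM for the miR-126 and miR-143 mimics. FAM3A-204 had 18.7, 12.8 and 12.7 TPM with the miR-126 mimic, 6.86, 6.82e-05 and 6.86 TPM with the miR-143 mimic and 3.43, 0.0106 and 10.99 TPM with the miR-150 mimic, against 7.09, 5.77 and 8.21 TPM in the control. It was above the control in all libraries of the miR-126 mimic, which 14.4% of transcripts were. Replicate 3 of both the miR-143 and the miR-150 mimic was listed near 0. FAM3A-215 averaged 0.215 ± 0.372, 7.07 ± 4.02 and 6.31 ± 3.01 TPM with the mimics of miR-126, miR-143 and miR-150 and 2.36 ± 1.45 TPM in the control (SD, n = 3 each), and all libraries of the miR-126 mimic were below the control. Summed over these 3 transcripts the means were 18.2 ± 2.48, 19.3 ± 2.85 and 22.3 ± 1.55 TPM for the mimics of miR-126, miR-143 and miR-150 and 22.7 ± 3.66 TPM for the control, and each mimic overlapped the control. FAM3A-210 averaged 3.62 ± 0.552, 0.900 ± 0.852 and 1.28 ± 0.449 TPM with the mimics of miR-126, miR-143 and miR-150. In the control it averaged 2.85 ± 0.673 TPM (SD, n = 3 each). All its libraries of the miR-143 and miR-150 mimics were below the control, and those of the miR-126 mimic overlapped it. The share of all transcripts below the control with the miR-150 mimic is not given here. Whether reads were redivided between the FAM3A transcripts was not tested.

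**Figure D4:**
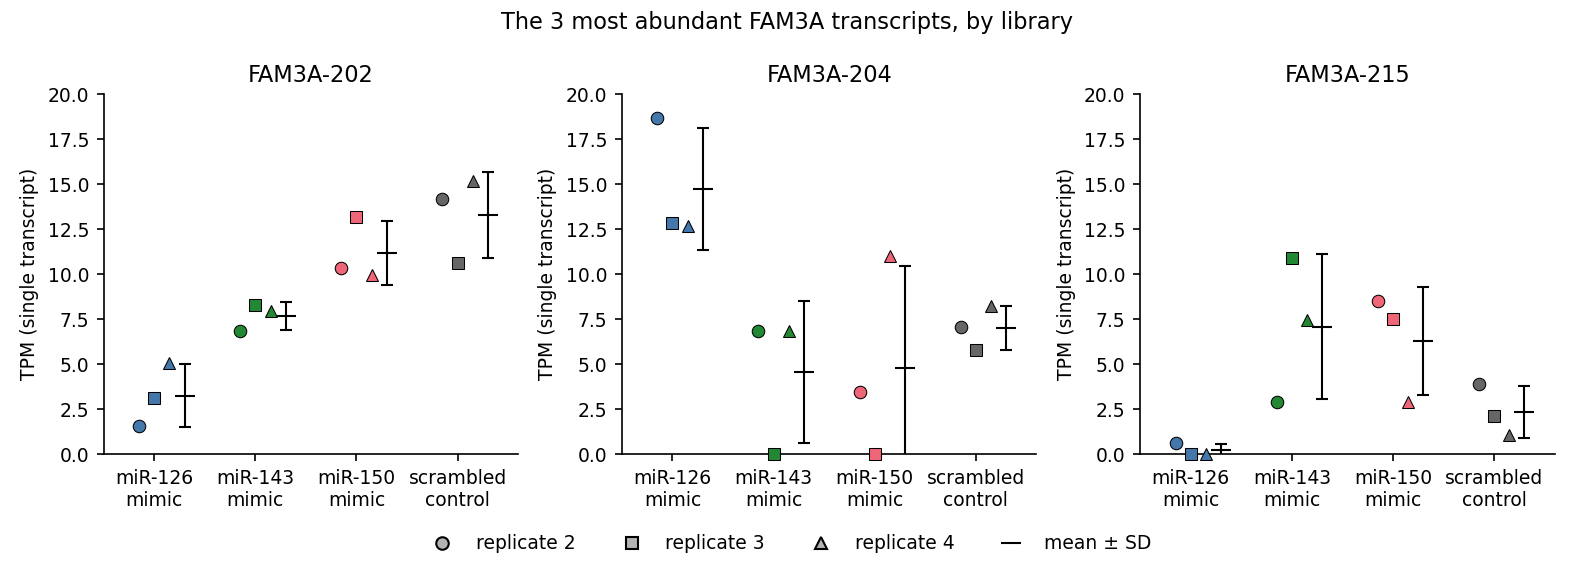
TPM of FAM3A-202, FAM3A-204 and FAM3A-215 in each library by group, with mean ± SD (bars cut at 0). FAM3A-202 is lowest and FAM3A-204 highest with the miR-126 mimic, while replicate 3 of the miR-143 and miR-150 mimics is listed near 0 for FAM3A-204.

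The genes with the most similar levels to FAM3C were found by Pearson correlation of log2(TPM + 1) over the 12 libraries, among 13749 genes and leaving out FAM3C2. They were RNF145 (r = 0.966), MTCH2 (r = 0.965), SAE1 (r = 0.964), KCNK6 (r = 0.959) and MRPL10 (r = 0.957). The libraries fall into 4 groups, and FAM3C2 ranked 29 with r = 0.927. MTCH2, a mitochondrial outer membrane protein, averaged 198 ± 1.52, 208 ± 14.4 and 114 ± 8.33 TPM with the mimics of miR-126, miR-143 and miR-150 and 154 ± 6.49 TPM in the scrambled control (SD, n = 3 each). KCNK6, a potassium channel, averaged 8.57 ± 0.674, 11.7 ± 0.665 and 4.46 ± 0.286 TPM, against 7.35 ± 0.557 TPM in the control. For FAM3A the nearest genes were PPP4C (r = 0.891), SEC61B (r = 0.872) and MRPS15 (r = 0.872), and FAM3C stood at r = -0.270 with FAM3A. These values describe the libraries and say nothing of shared control.

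Genes around the family were followed in 4 lists with 53 genes, of which 49 were tested. The lists were chosen with earlier results of these data known, so their p-values and called shares are not independent of that choice. Across all tested genes limma called 5.11% with the miR-126 mimic (3.37% higher, 1.73% lower), 3.32% with the miR-143 mimic (1.84% higher, 1.48% lower) and 3.32% with the miR-150 mimic (1.08% higher, 2.23% lower) at an adjusted p under 0.05. Scaling moved the balance of directions: with each library centred on its median gene 354 genes were higher and 547 lower with the miR-126 mimic, in place of 464 and 238, and quantile normalization gave 482 and 547. For the miR-150 mimic quantile normalization gave 301 higher and 372 lower, in place of 149 and 307. In the lists 2 genes rose and 5 fell with the miR-126 mimic (14.3% of 49), 3 fell with the miR-143 mimic (6.12%) and 5 fell with the miR-150 mimic (10.2%). The median difference of the listed genes was -0.03, -0.21 and -0.32 on the log2 scale, beside 0.10, -0.04 and -0.11 over all tested genes. A fit with a replicate block for the miR-126 mimic had 14 called list genes, 2 higher and 12 lower, and 2331 called genes in all in place of 702. The 7 added list genes were PIK3R2, CEMIP2, PLAU, AKT2, TGFB2, EEF1A1 and PLAUR, all lower with the miR-126 mimic, with blocked limma adjusted p from 0.000571 (PLAU) to 0.0428 (TGFB2). EEF1A1 has near-identical copies in the genome, so its value is uncertain. Without replicate 4 of the miR-143 mimic and of the miR-150 mimic, 1835 genes were called for the miR-126 mimic.

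In the list of FAM3C translation, TGF-beta input and secretion 16 of 17 genes were tested, and TGFB1 was not analysed here. With the miR-126 mimic 1 of the 16 rose and 4 fell, and 3 fell with the miR-143 mimic and 3 with the miR-150 mimic. Urokinase and plasmin act on secreted FAM3C. SERPINE2, a serine protease inhibitor that acts on urokinase, fell with each mimic. It had 120 ± 9.60, 144 ± 14.8 and 105 ± 1.72 TPM with the mimics of miR-126, miR-143 and miR-150 and 278 ± 59.6 TPM in the scrambled control (SD, n = 3 each). Its log2 differences were -1.19, -0.93 and -1.37 (SE 0.149 each; limma adjusted p 0.00143, 0.00677 and 0.00056). It kept an adjusted p under 0.05 when any library of the comparison was left out. PLAU, urokinase itself, fell with the miR-143 mimic (log2 difference -0.87, limma adjusted p 0.0315) and the miR-150 mimic (-0.81, limma adjusted p 0.0417). These 2 calls were lost in 5 of 6 fits that left out a library (adjusted p 0.0275 to 0.129 and 0.0197 to 0.13). Without the 2 libraries high in short transcripts their adjusted p was 0.0618 and 0.0954. With a replicate block their limma adjusted p was 0.000136 and 0.000183. PLAT, tissue plasminogen activator, fell with the miR-126 mimic to 88.9 ± 5.33 TPM, against 155 ± 25.4 TPM in the control (log2 difference -0.79, limma adjusted p 0.0092; 0.00801 to 0.056 with a library left out).

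Upstream, the TGF-beta receptor TGFBR1 averaged 5.39 ± 0.705 TPM with the miR-126 mimic and 15.1 ± 4.20 TPM in the scrambled control, and it fell (log2 difference -1.31, limma adjusted p 0.0483). EEF1A2, a translation elongation factor, averaged 3.46 ± 0.520 TPM with the miR-126 mimic and 1.48 ± 0.218 TPM in the control, and it rose (log2 difference 0.84, limma adjusted p 0.0419). Both calls were lost in 6 of 6 fits that left out a library, with adjusted p of 0.0762 to 0.164 and 0.0666 to 0.176. TGFBR2, SMAD2, SMAD3, SMAD4 and PCBP1, which holds back FAM3C translation, passed the threshold with no mimic in the fit without a replicate block. For PCBP1 with the miR-150 mimic the log2 difference was -0.32, with a limma adjusted p of 0.0868, and 0.02 with the block. TGFB2 with the miR-150 mimic (log2 difference -0.86) had a limma adjusted p of 0.0643, and 0.00638 with the block. EEF1A1 with the miR-143 mimic (log2 difference -0.43) had 0.108, and 0.00142 with the block.

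Of the 11 genes of LIF receptor and STAT3 signalling, on which FAM3C acts, PIAS3 alone passed without a replicate block, with the miR-126 mimic. PIAS3, an inhibitor of STAT3, averaged 53.2 ± 6.94, 35.8 ± 5.12 and 36.2 ± 9.98 TPM with the mimics of miR-126, miR-143 and miR-150 and 20.3 ± 1.53 TPM in the scrambled control (SD, n = 3 each). Its log2 differences were 1.34, 0.78 and 0.77 (SE 0.195 each; limma adjusted p 0.00343, 0.0543 and 0.0573), and the differences between mimics were not tested. Without the 2 libraries high in short transcripts its limma adjusted p was 0.0199 for the miR-143 mimic and 0.00983 for the miR-150 mimic. With a replicate block MYC also passed, lower with the miR-143 mimic (log2 difference -0.77, limma adjusted p 0.00105). CEBPD then passed too, higher with the miR-143 and miR-150 mimics (0.82 and 0.68, limma adjusted p 0.0173 and 0.0368). Without the block their limma adjusted p was 0.109 for MYC, and 0.149 and 0.221 for CEBPD. LIFR, IL6ST, JAK1, JAK2 and STAT3 did not pass in any comparison.

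Of the FAM3A signalling list, 19 of 20 genes were tested, and the P2 receptor gene P2RY1 was under the filter. CALM2, a calmodulin gene, averaged 714 ± 16.2 TPM with the miR-126 mimic and 989 ± 18.1 TPM in the scrambled control, and it fell (log2 difference -0.47, limma adjusted p 0.00426). With the miR-143 and miR-150 mimics CALM2 stood above the control in mean, at 1153 ± 45.5 and 1181 ± 17.9 TPM. Its log2 differences there were 0.22 and 0.26 (limma adjusted p 0.136 and 0.0822, or 0.0308 and 0.0183 with a replicate block). PPARG, a nuclear receptor that raises FAM3A expression, averaged 25.5 ± 3.90 TPM with the miR-150 mimic and 45.8 ± 4.84 TPM in the control, and it fell (log2 difference -0.82, limma adjusted p 0.00993; 0.00659 to 0.0571 with a library left out). No gene of this list passed with the miR-143 mimic in the fit without a replicate block. With the block P2RX4, AKT1 and P2RY11 also passed with the miR-150 mimic, all lower. Their log2 differences were -0.49, -0.43 and -0.76. Their limma adjusted p was 0.0259, 0.0300 and 0.0077 with the block, and 0.0954, 0.244 and 0.279 without it.

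Among the GG domain relatives CEMIP2, a cell surface hyaluronidase, averaged 50.6 ± 15.9 TPM with the miR-150 mimic and 116 ± 8.23 TPM in the scrambled control, and it fell (log2 difference -1.22, limma adjusted p 0.0057). POMGNT1, a glycosyltransferase, and CEMIP did not pass in any comparison, while FAM3B and FAM3D were under the filter.

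**Figure D5:**
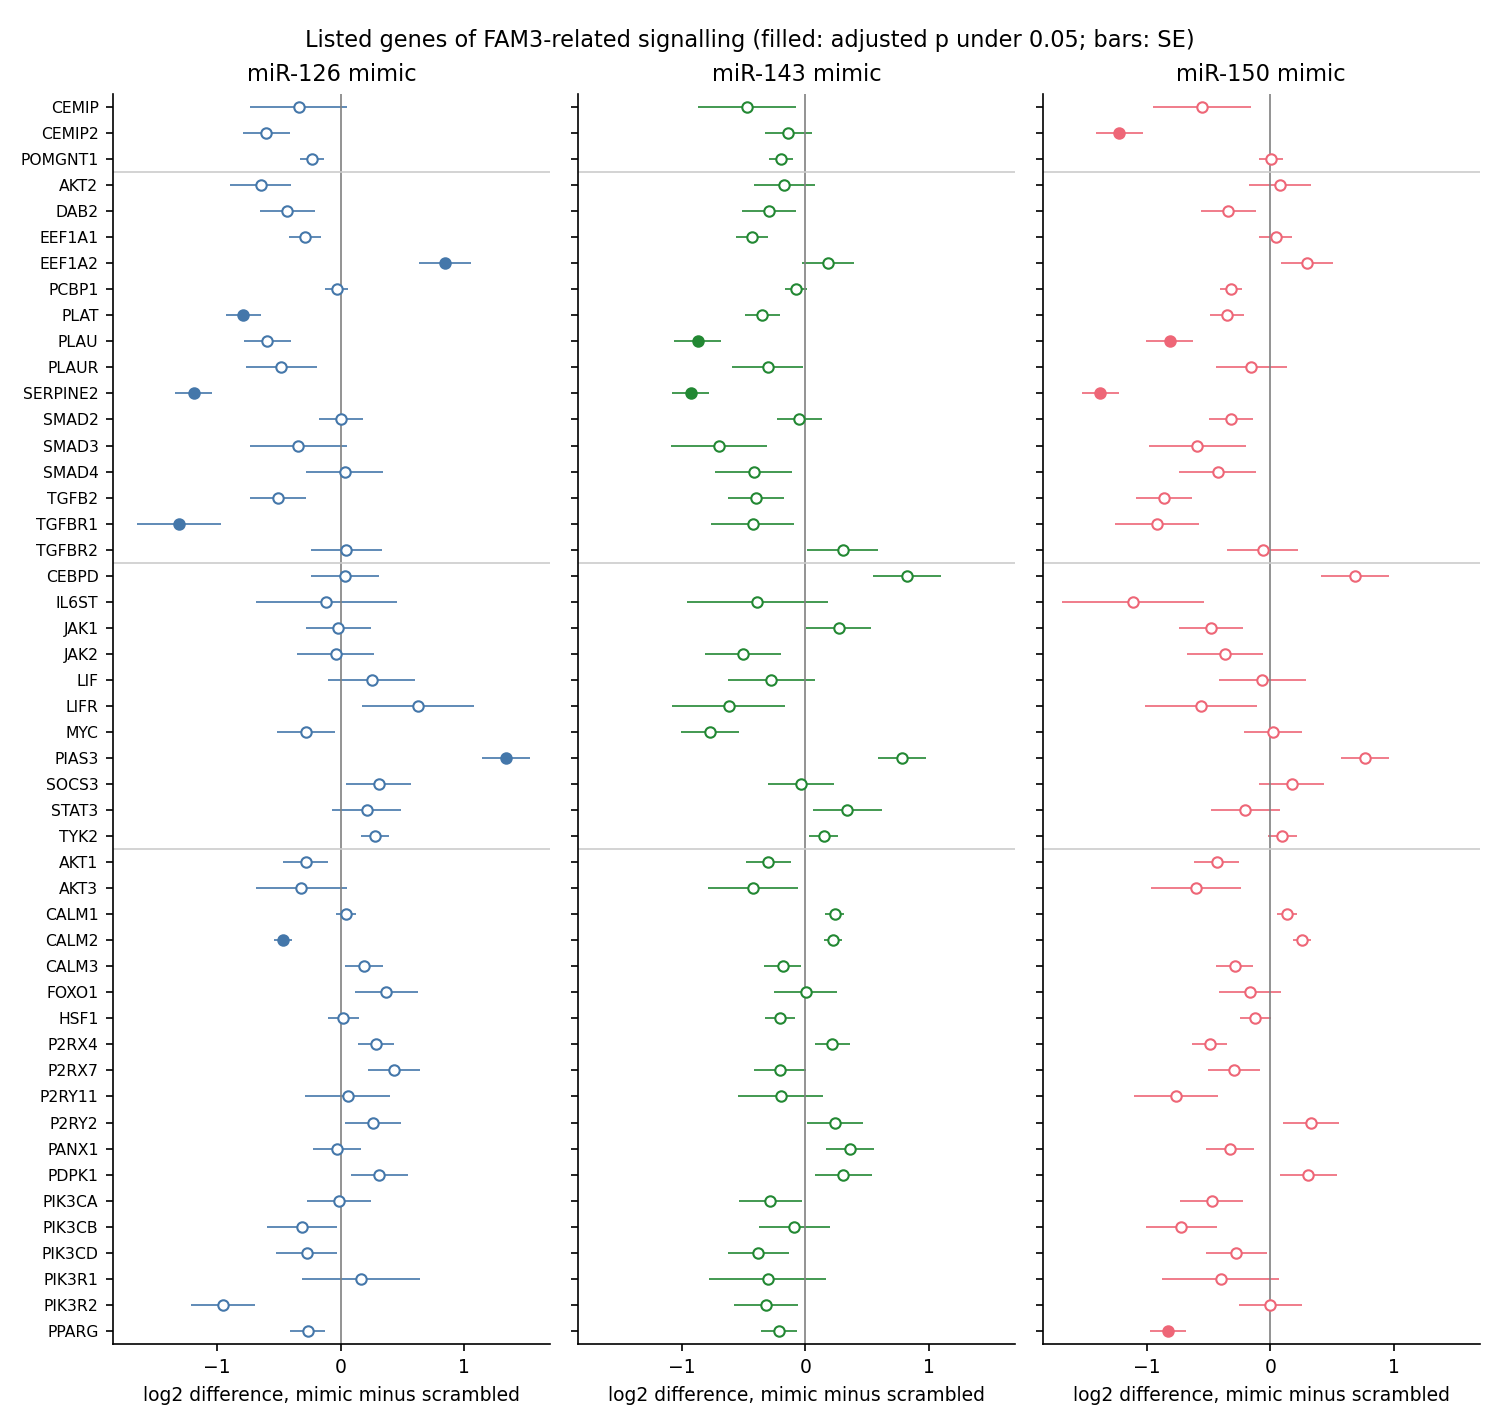
Log2 differences (mimic minus scrambled control, on log2(TPM + 1)) with SE for the tested list genes reported here, by mimic, with lines between the lists and filled points for an adjusted p under 0.05. SERPINE2 is filled in all 3 panels, and PIAS3 in the miR-126 panel.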

How the data were processed

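Transcript abundances were deposited as TPM for 12 libraries of HMEC-1 cells. The authors made the TPM with kallisto, and FastQC, sleuth and the build hg38 (GRCh38) are named too, per the submitters' processing notes; versions, the transcript annotation and filters were not given in the sources used here. Division by length and library total leaves no read depth, so the replicate spread was the measure of precision. TPM were summed per gene symbol, leaving out 171 transcripts without a gene. GENCODE 29 on GRCh38 stood in for the authors' annotation and held 169900 transcripts of the table (90.55%) by identifier and version. It gave positions, lengths and sequences.

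The model had the group as its only term and was fitted with limma 3.58.1 in R 4.3.3 to log2(TPM + 1) of 13750 genes over all 12 libraries (mean-variance trend, two-sided, Benjamini-Hochberg over all genes, threshold 0.05). Differences on this scale understate changes of low genes. The fit was tested on simulated data with independent noise in each library. That test therefore did not cover correlation between same-numbered libraries or the libraries high in short transcripts. FAM3A, FAM3C and FAM3C2 were described without tests. The members and the lists were chosen with earlier results of these data known. Named list genes are those past the threshold, at most 12 per comparison, largest difference first, except for a list gene that is counted but not reported here; the 5 genes most like FAM3C and 3 most like FAM3A were named by Pearson correlation. Residuals of same-numbered libraries of the miR-126 mimic and the scrambled control correlated with 0.29, 0.63 and 0.40 for numbers 2, 3 and 4, all above 0.1. The blocked fit is therefore given beside the list calls it changes. Alternatives were a pseudocount of 0.1, no filter, other scalings, the replicate block, and libraries left out.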

Additional observations from a re-analysis of the deposited data

How the results depend on the processing

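FAM3C and FAM3C2 kept the direction of each difference from the scrambled control under every alternative run, and FAM3C2 differences and shares moved by less than the spread between replicates. With FAM3C and FAM3C2 summed as 1 gene, the FAM3C difference for the miR-126 mimic was 0.97 on the log2 scale. Centring each library on its median gene shifted the differences by -0.14, 0.05 and 0.13 for the mimics of miR-126, miR-143 and miR-150; FAM3A for the miR-126 mimic was then -0.26, and -0.23 with quantile normalization, and 12 list genes were called for the miR-126 mimic. With the replicate number as a block, 2331, 1775 and 1694 genes and 14, 8 and 13 list genes were called for the mimics of miR-126, miR-143 and miR-150; for the miR-143 and miR-150 mimics residuals of same-numbered libraries correlated with 0.04 to 0.65 and 0.07 to 0.60, so the numbers were not taken as pairs; in the blocked fit PIAS3 had a limma adjusted p of 0.00683 and 0.00832 for the miR-143 and the miR-150 mimic. Without the 2 libraries high in short transcripts, 1835 and 707 genes were called for the miR-126 and miR-143 mimics, and quantile normalization called 764 for the miR-143 mimic. Leaving out a library gave 214 to 472, 139 to 339 and 125 to 553 called genes and 4 to 5, 2 to 3 and 3 to 5 list genes for the mimics of miR-126, miR-143 and miR-150. The count of genes moved by over 1.5 times without scrambled control replicate 2 or 4 in each comparison, and also without mimic replicate 2, 3 or 4 for the miR-126 and the miR-143 mimic, and without mimic replicate 2 or scrambled control replicate 3 for the miR-150 mimic; it was lowest without scrambled control replicate 4. The cause of these moves was not tested. Read depth is unknown, and 3 libraries a group limit the precision.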
